A study of Mus musculus with 6 samples.

Results

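The Rnf genes encode RING finger proteins, most of them E3 ubiquitin ligases, and their transcripts were followed in nuclear RNA of mouse embryonic stem cells after a pulse of 4-thiouridine (4SU) was withdrawn. The members were the rows of the deposited gene table whose symbol is Rnf followed by a number and at most 1 letter, with Rnf2 left out. This rule found 80 of 23281 rows, and the 61 rows with a mean of at least 100 reads over the 6 libraries are described here. They carry 60 symbols, because Rnf26 stands on 2 overlapping gene IDs. The other 19 members, from Rnf186 with a mean of 0.833 reads to Rnf208 with 69.5, were below this minimum, and their labelled shares were not fitted.

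The cells were female embryonic stem cells of 129S X Cast background, in which a TetOn promoter had replaced the Xist promoter on the 129S allele and a Bgl stem-loop sat in the 3' end of Xist. The titles of the 6 samples also carry the name BglHalo, whose Halo part is not described further here. All 6 groups were kept in ES medium after pre-plating to remove feeder cells. Each received 1 µg/ml doxycycline for 17.5 to 20 h and then 500 µM 4SU with doxycycline for 4 h. The 0 min group was taken without a washout, and the others after 30, 60, 90, 120 or 150 min in doxycycline medium with 50 mM uridine. There was 1 library per time, so each p-value below measures scatter around a straight line over time and not the spread between cultures. No library of cells without doxycycline or without 4SU was analysed here. The times of the table's columns were inferred from their prefixes, as described under processing.

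In SLAM-seq, 4SU taken up into new RNA is alkylated and then read as a T-to-C change, so the labelled share of a gene's reads is the part made during the pulse. The share falls in the washout as labelled molecules leave the nucleus or are degraded while unlabelled ones are made. Loss by decay and loss by export cannot be told apart in nuclear RNA, and in bulk libraries fewer cells with a transcript and less RNA per cell cannot be told apart.

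Ubiquitin ligases of the RING class bind an E2 enzyme carrying ubiquitin and pass the ubiquitin directly to a substrate. Ligases of the RING-between-RING class first take the ubiquitin onto themselves. The PA-TM-RING class has a protease-associated domain on the far side of a membrane and the RING in the cytosol. In the nucleus, Rnf8 and Rnf168 mark histones beside DNA breaks and Rnf20 with Rnf40 ubiquitylates histone H2B, while other members work at the endoplasmic reticulum, the Golgi, endosomes or in signalling.

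The libraries held 18558073 to 28535162 reads over all genes. All 80 member rows, including those under the read minimum, together took 0.304 to 0.336% of these reads. Over all genes, 4.05, 2.69, 4.11, 2.57, 1.55 and 1.17% of covered T positions read as C at 0, 30, 60, 90, 120 and 150 min. Within the same 80 member rows the raw T-to-C rates were 5.30, 3.30, 5.61, 2.93, 1.49 and 1.00% in the same order. The 30 min library therefore had a lower raw rate than the 60 min library, both in the members and over all genes, against the order of the labels. Results were also computed without these 2 libraries and with their times exchanged. Embryonic stem cell markers summed to 1398 to 1664 CPM (reads scaled to library size) in each library and fibroblast feeder markers to 303 to 448 CPM, with none of the 11 genes at 0 in any library. The part of feeder RNA in the results below was not tested.

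The labelled share of 42 of the 61 Rnf rows fell over the washout, that of 1 row rose, and 18 were not called (limma slope of the natural log of the share on time, Benjamini-Hochberg adjusted p under 0.05 over 11462 genes). Over all genes tested, 52.3% fell and 1.19% rose. The median rate of loss was 0.414 per h in the Rnf rows and 0.247 per h over all genes tested. At 0 min the median share was 63.2% in the Rnf rows and 46.8% over all genes, and at 150 min it was 19.4% and 21.1%. Shares of single members ranged from 6.73 to 94.2% at 0 min and from 8.89 to 39.2% at 150 min. The 5% and 95% posterior quantiles of the 0 min share lay a median of 2.39 percentage points from the midpoint between them.

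A half-life below is the natural log of 2 divided by the rate of loss, and is given only for members that fell. Its median was 74.8 min in the 42 Rnf rows that fell and 86.9 min in the 5996 genes that fell. Of the 42, 9 had a half-life under 60 min, 18 between 60 and 90 min, 8 between 90 and 120 min and 7 over 120 min. In the same order these are 21.4, 42.9, 19.05 and 16.7% of the 42. Of the 5996 genes that fell, 21.5, 31.3, 20.98 and 26.2% lay in these ranges. The part under 60 min was thus about the same in both sets. Leaving out the 150 min library left 30 Rnf rows that fell, and 1 that rose, against 31.3% and 0.489% of all genes, and the other single libraries left out gave 38 to 45 that fell. On the raw T-to-C rate, which needs no model of the conversion, 51 of 61 rows fell and 0 rose, against 66.9% and 0% of the genes tested that way. The 42 rows above were all among these 51, and the 9 added were Rnf11, Rnf13, Rnf17, Rnf115, Rnf125, Rnf141, Rnf149, Rnf170 and Rnf214. The raw rate also moves with how often labelled RNA was converted in each library, so a fall on it alone does not measure label loss. Rnf213, for example, had shares of 20.8 and 21.9% at 0 and 120 min, but raw rates of 2.17 and 1.23%.

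**Figure D1:**
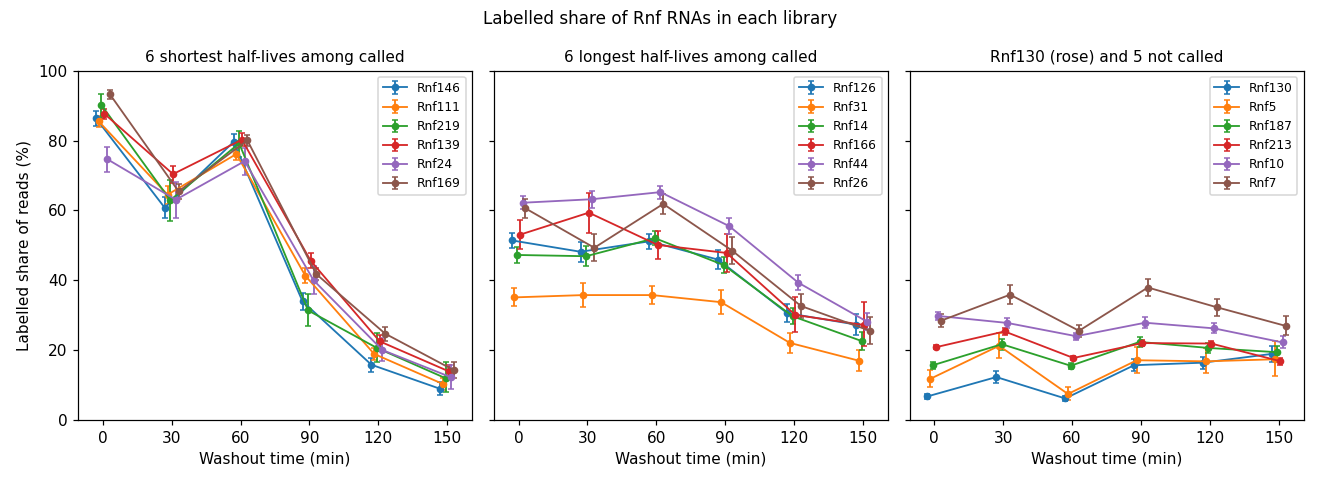
Labelled share of reads (%) against washout time (min) of Rnf genes, in 1 library per time. The first panels hold the 6 genes with the shortest and the 6 with the longest half-lives among those that fell. The last panel holds Rnf130, whose share rose, and Rnf5, Rnf187, Rnf213, Rnf10 and Rnf7, which were not called. Points are the posterior mean and bars run from the 5% to the 95% posterior quantile. Rnf146 goes from 86.4 to 8.89%, whereas Rnf213 stays between 16.8 and 25.3%, and the 30 min point of the fastest genes lies below their 60 min point.

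Rnf146 lost label fastest of the 61 rows. It encodes a ligase that recognises poly-ADP-ribose and, with tankyrase, drives the degradation of axin in Wnt signalling. The gene (ENSMUSG00000038876) lies on the minus strand at chr10:29344176-29362442 in mm10. Its labelled share was 86.4, 60.8, 79.6, 34.0, 15.8 and 8.89% in the 0, 30, 60, 90, 120 and 150 min libraries, read from 868 to 1246 reads. Each of the 90, 120 and 150 min values was below the 3 earlier ones. The rate was 0.929 ± 0.123 per h (SE), a half-life of 44.8 min (39.5 to 51.6 min at 1 SE), with an adjusted p of 5.15e-05 in limma.

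Rnf111, also called Arkadia, encodes a ligase that binds SUMO chains and degrades inhibitors of the TGF-beta pathway such as Smad7 and Ski. Its labelled share was 85.5, 64.5, 76.2, 41.3, 18.9 and 10.3% in time order, with a half-life of 48.9 min. Rnf219, a ligase linked to the firing of replication origins, had shares of 90.2, 62.9, 79.2, 31.4, 20.6 and 11.9% and a half-life of 50.5 min. The 3 fastest genes reached 8.89 to 11.9% at 150 min from 85.5 to 90.2% at 0 min. Rnf139 (Trc8), a sterol-sensing ligase of the endoplasmic reticulum, gave 87.7, 70.4, 80.2, 45.5, 22.5 and 13.9% and a half-life of 55.2 min. Rnf24, a small Golgi membrane ligase, gave 74.7, 63.1, 74.1, 40.0, 20.0 and 12.2% and 55.4 min. Rnf169, which binds ubiquitylated chromatin at DNA breaks, gave 93.4, 65.5, 80.0, 41.8, 24.7 and 14.2% and 56.0 min. In all 6 genes the 90 min share lay below the 30 min share, and the 60 min share lay above it.

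AU-rich elements in 3' untranslated regions (UTRs), built on the pentamer ATTTA, are known to speed the decay of mRNAs, so the UTRs of 1 coding transcript per gene were read from GENCODE M21 (mm10) for both letters and length. Of the 10 fastest Rnf rows, picked by the rate itself, all held ATTTA, against 80.3% of the 61 Rnf rows and 68.4% of 11269 genes with a coding transcript. It stood in 81.0% of the Rnf rows that fell and in 78.9% of those that did not. At least 5 copies stood in 7 of the 10, against 29.5% of the 61 Rnf rows and 21.4% of the genes with a coding transcript. These 10 also had longer UTRs, with a median of 2182 nt against 1055 nt. Their median was 2.55 copies per kb, against 1.34 over all genes and 1.51 over the 61 Rnf rows. Over the 61 rows the rate of loss ran with the ATTTA count (Spearman's rho 0.322) about as it did with UTR length (rho 0.339), and copies per kb gave a rho of 0.0466 over the 60 rows with a UTR. These are descriptions over genes of shared libraries. Per kb of UTR, the median was 1.25 copies in the rows that fell and 1.69 in the 19 that did not, the opposite order to that over all genes (1.50 in those that fell and 1.11 in those that did not). High counts also stood in genes without a called loss, 11 in Rnf150 and 5 each in Rnf11, Rnf141 and Rnf170, and the highest, 32 in Rnf217, went with a half-life of 91.9 min. The windows below, transcript strand and 5′ to 3′, show the first stretch of 30 bases with the most ATTTA copies in 3 fast genes, Rnf146 with 12 copies in 2631 nt, Rnf111 with 7 in 1561 nt and Rnf139 with 6 in 2256 nt, and in 2 genes that did not fall, Rnf130 with 1 copy in 189 nt and Rnf5 with 1 in 478 nt. Capitals mark the pentamer, including overlapping copies.
Rnf146 (chr10:29345908-29345937, minus strand): gcagctaatatcATTTATTTAcATTTActt
Rnf111 (chr9:70426792-70426821, minus strand): tgattttgatgtATTTAtaaaagctttttt
Rnf139 (chr15:58900135-58900164, plus strand): agtagcATTTActaatcattgaggtatttg
Rnf130 (chr11:50104617-50104646, plus strand): tttttgtgcatcATTTAccaatcatgccac
Rnf5 (chr17:34601217-34601246, minus strand): ctacttgacttaATTTAatttttctctacc
Of these windows only that of Rnf146 holds 3 pentamers, 2 of them overlapping.

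The longer nonamer TTATTTATT, which contains 1 ATTTA, was in the UTR of 4 of the 42 rows that fell (9.52%) and 0 of the 19 others. It was in 7.68% of the 11269 genes with a coding transcript, 10.0% of those that fell and 5.12% of those that did not. The Rnf counts lay near these shares. Rnf165, Rnf8 and Rnf217 held it, as did the Rnf26 row that GENCODE M21 names Gm49380, at a site outside the other Rnf26 ID, whose own UTR has none. The capitals below mark it in 2 of them. A match says only that the letters are there.
Rnf8 (chr17:29644419-29644447, plus strand): tttaaagattTTATTTATTttttatatat
Rnf217 (chr10:31494279-31494307, minus strand): cttaagttggTTATTTATTtttaagctaa
The half-lives of these 2 genes were 67.7 and 91.9 min, and neither was among the 10 fastest rows, whereas Rnf165 was.

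**Figure D2:**
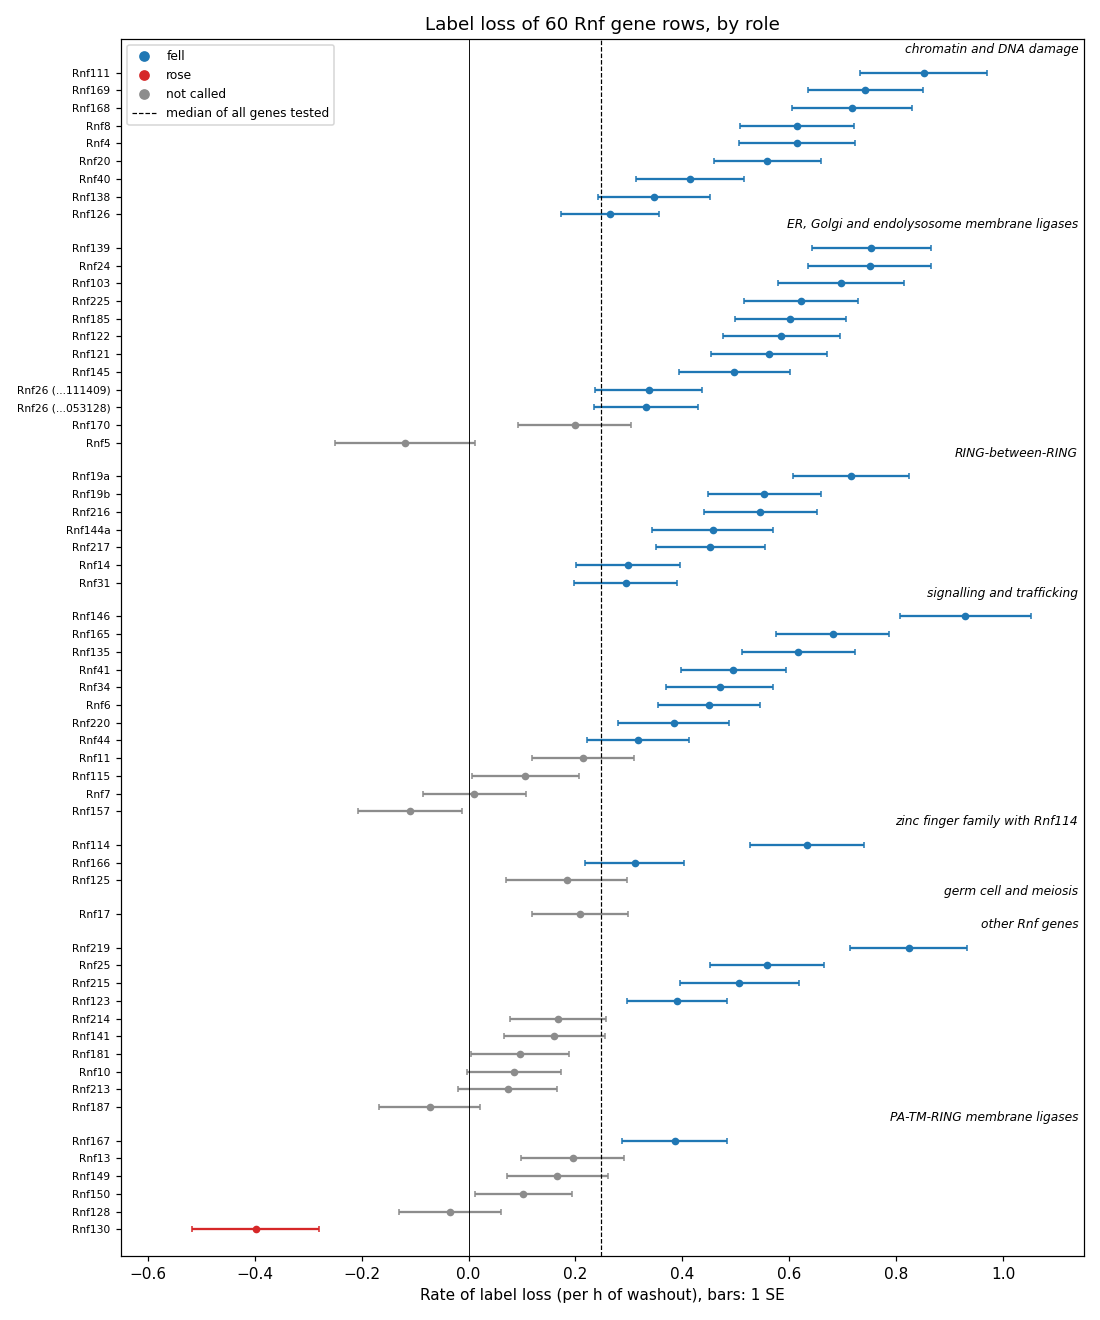
Rate of label loss (per h of washout) of 60 of the 61 Rnf rows with mean reads of at least 100, grouped by role and coloured by call; points are limma slopes with the sign turned, bars 1 SE, and the dashed line the median of all genes tested, 0.247 per h. All 9 chromatin and DNA damage rows and all 7 RING-between-RING rows lie to the right of the line, and Rnf130 lies farthest to the left.

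All 9 genes placed among chromatin and DNA damage ligases fell, against 52.3% of all genes tested, with a median rate of 0.614 per h. They include Rnf111, described above. Rnf4, a ligase that recognises SUMO chains, was the most abundant of them, at a median of 59.7 CPM per kb of gene length. The labelled share of Rnf4 was 82.3, 64.5, 75.3, 51.3, 29.8 and 16.5% in time order, with a half-life of 67.7 min. Its 30 min value lay below the 60 min value, and the last 3 values fell step by step. Rnf8, which builds ubiquitin chains at DNA breaks, had the same half-life to 3 digits, 67.7 min. Rnf168, which then ubiquitylates histone H2A, had 58.0 min, and its relative Rnf169 is described above. Rnf138, a ligase of break resection, was slower at 120.0 min. Rnf126, which works with BAG6 on mislocalised proteins and also in DNA repair, had the longest half-life among all Rnf rows that fell. Shares of Rnf126 were 51.4, 48.2, 51.1, 45.9, 30.6 and 27.3%, a half-life of 157 min with a limma adjusted p of 0.0235. Its first 4 values stayed within 45.9 to 51.4%, and the last 2 lay below them. The call of Rnf126 was lost without the 30, the 120 or the 150 min library, with rates of 0.275, 0.241 and 0.218 per h, and without both the 30 and the 60 min library (0.255 per h, limma adjusted p 0.0567). Without the 150 min library Rnf40 (0.273 per h) and Rnf138 (0.241 per h) were not called either. On labelled abundance, the share multiplied by total CPM, Rnf138 was not called and ran at 0.135 per h (limma adjusted p 0.359).

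All 7 RING-between-RING rows fell, against 52.3% of all genes tested, with a median rate of 0.457 per h. Rnf216 (Triad3), which controls receptors and kinases of innate immunity, had shares of 69.8, 58.5, 63.0, 49.4, 29.6 and 16.3% and a half-life of 76.2 min. Rnf14, first described as an androgen receptor coactivator, had shares of 47.2, 46.9, 52.0, 44.3, 29.7 and 22.6% and a half-life of 139 min. Rnf31 (HOIP), the catalytic subunit of the complex that makes linear ubiquitin chains, had 35.1, 35.8, 35.8, 33.7, 22.1 and 17.0% and 142 min. For both Rnf14 and Rnf31 the first 4 values were close together and only the 120 and 150 min values were lower. Neither was called without the 120 min library (0.287 and 0.283 per h) or without the 150 min library (0.197 and 0.198 per h), nor was Rnf14 on labelled abundance (0.252 per h, limma adjusted p 0.0884). Rnf144a, a ligase of the DNA-dependent protein kinase, and Rnf217 had half-lives of 91.1 and 91.9 min, and the shares of Rnf144a were lowest at 120 min (19.7%) and not at 150 min (28.4%).

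Of 12 rows for membrane ligases of the endoplasmic reticulum, Golgi and endolysosomes, 10 fell, against 52.3% of all genes tested. The median rate was 0.573 per h over the 12. Rnf139 and Rnf145, the 2 with the most reads, are both linked to sterol metabolism and are compared below. Rnf185, which removes misfolded proteins of the endoplasmic reticulum, had a half-life of 69.1 min, Rnf103 one of 59.6 min, Rnf121 one of 74.1 min and Rnf122 one of 71.1 min. Rnf225 started from the highest share of all members, 94.2, 58.4, 81.3, 36.2, 23.1 and 21.9% in time order, but from as few as 34 reads at 150 min. Rnf26, which holds endosomes near the nucleus, gave 60.6, 49.3, 61.9, 48.5, 32.6 and 25.5% on ENSMUSG00000053128 (chr9:44095631-44113517) and a half-life of 125 min. The second ID, ENSMUSG00000111409 (chr9:44066327-44113500, minus strand like the first, named Gm49380 in GENCODE M21), overlaps it and shares its reads, so its 123 min is no separate result. Neither ID was called without the 150 min library (0.251 and 0.262 per h).

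Rnf170 and Rnf5 were the 2 membrane ligases of this group that were not called. Rnf170, which degrades activated inositol trisphosphate receptors, had shares of 32.7, 49.7, 45.4, 42.6, 27.6 and 23.6%, with 0 min below 30 min, and fell when the 0 min library was left out (0.398 per h, limma adjusted p 0.0138) or on the raw T-to-C rate (0.469 per h, limma adjusted p 0.0180). Rnf5, a partner of Rnf185 in the removal of misfolded proteins, had shares of 11.8, 21.2, 7.42, 17.1, 16.8 and 17.4%. With the times of the 30 and 60 min libraries exchanged the share of Rnf5 rose (rate -0.239 per h, limma adjusted p 0.022), and on the raw T-to-C rate its sign turned (0.0634 per h, not called).

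Among 13 signalling and trafficking ligases 9 fell, against 52.3% of all genes tested, with a median rate of 0.449 per h. Rnf165, a relative of Rnf111 in BMP signalling, had a half-life of 61.0 min and Rnf135 (Riplet), a ligase for the RNA sensor RIG-I, one of 67.4 min. Rnf41 (Nrdp1), which degrades the receptor ErbB3, Rnf34 and Rnf6 followed at 84.0, 88.6 and 92.5 min. Rnf220, the member of this group with the most reads and a ligase reported to stabilise beta-catenin, had shares of 65.6, 55.5, 71.2, 54.6, 33.6 and 24.4% and 108 min. Its highest value was at 60 min. Rnf44 was the slowest called of the group, with shares of 62.2, 63.2, 65.2, 55.5, 39.3 and 28.1% and 131 min. Without the 150 min library Rnf220 (0.271 per h) and Rnf44 (0.210 per h) were not called.

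Rnf11, Rnf115, Rnf7 and Rnf157 of the signalling group were not called. Rnf7, a RING subunit of cullin ligases, had shares of 28.4, 35.9, 25.5, 37.9, 32.3 and 26.9%, all between 25.5 and 37.9%. The rate of Rnf11, an adaptor of the A20 complex, was 0.214 ± 0.0957 per h, and it fell without the 60 min library (0.213 per h) or the 90 min library (0.230 per h), and with the times of the 30 and 60 min libraries exchanged (0.203 per h, limma adjusted p 0.0497). Rnf115 ran at 0.106 ± 0.100 per h and Rnf157 at -0.110 ± 0.0970 per h, where a negative rate is a rising share. On the raw T-to-C rate Rnf11 and Rnf115 fell (0.459 and 0.378 per h).

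The zinc finger family of Rnf114 includes ligases of innate immunity, and 2 of the 3 rows placed in this group fell, against 52.3% of all genes tested. Rnf138, a relative of Rnf114 that also fell, was counted among the chromatin and DNA damage ligases instead. Rnf114 had shares of 65.1, 57.4, 61.5, 40.1, 22.1 and 13.7% and a half-life of 65.7 min. Rnf166 had shares of 53.0, 59.4, 50.1, 47.8, 30.1 and 27.2% and 134 min, and was not called without the 120 min (0.281 per h) or the 150 min library (0.271 per h). Rnf125, which targets RIG-I, had 39.6, 45.9, 27.8, 53.3, 32.6 and 22.4% and was not called. It fell without the 60 min library (0.204 per h, limma adjusted p 0.0471) and on the raw T-to-C rate (0.433 per h, limma adjusted p 0.0298). Its values went up and down from library to library, with 30 and 90 min above 0 and 60 min.

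Of the 6 PA-TM-RING rows 1 fell, 1 rose and 4 were not called, with a median rate of 0.134 per h. Over all genes tested 52.3% fell and 1.19% rose. On the raw T-to-C rate 3 of the 6 fell and 0 rose, and no test between role groups was made. Rnf167, a ligase of endosomes and lysosomes, fell, with shares of 58.2, 52.4, 58.9, 47.5, 30.1 and 22.0% and a half-life of 108 min, but was not called without the 150 min library (0.284 per h). Rnf149 had shares of 39.3, 45.6, 37.5, 44.9, 33.7 and 25.4%, and each of its 30 and 90 min values exceeded the 0 and 60 min values. Its rate was 0.166 ± 0.0944 per h on the modelled share and 0.452 per h on the raw rate, where it fell (limma adjusted p 0.0212). Rnf13, a ligase of endolysosomes, ran at 0.194 ± 0.0955 per h and fell on the raw rate (0.430 per h, limma adjusted p 0.0261). Rnf150 ran at 0.102 ± 0.0909 per h. Rnf128 (GRAIL), known from T-cell anergy, had shares of 22.8, 33.0, 22.9, 32.5, 27.7 and 26.6%, with both 0 and 60 min near 22.8%. Rnf128 lies on the X chromosome, and whether the induction of Xist bears on its values was not tested.

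Rnf130 (Goliath) was the one Rnf gene whose labelled share rose. The gene (ENSMUSG00000020376) lies on the plus strand at chr11:50025346-50104758. Its labelled share was 6.73, 12.3, 6.14, 15.7, 16.4 and 18.9% in time order, from 1006 to 2198 reads per library. The 2 lowest values were those at 0 and 60 min, and the highest was at 150 min. The rate was -0.398 ± 0.118 per h with a limma adjusted p of 0.00986. On the raw scale, 0.850, 0.944, 0.713, 1.36, 0.959 and 0.988% of covered T positions read as C in the same libraries, values without a trend past the test (limma adjusted p 0.637). The modelled share passed the test and the raw rate did not.

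The remaining 11 rows are Rnf17 and 10 genes with other roles, of which 4 fell, against 52.3% of all genes tested. Rnf219 is given above. Rnf25 had a half-life of 74.4 min, Rnf215 one of 82.2 min and Rnf123 (KPC1), a ligase for the cell cycle inhibitor p27, one of 106 min. Rnf215 was not called without the 150 min library (0.306 per h). Rnf17, a tudor protein of germ cells, had shares of 30.4, 28.2, 20.4, 23.9, 21.8 and 16.5% and fell when the 60 min library was left out (0.221 per h, limma adjusted p 0.0300), on the raw T-to-C rate (0.428 per h) and on labelled abundance (0.226 per h).

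Several of the most abundant Rnf transcripts showed no called loss. Rnf213, a giant ligase with a AAA+ ATPase core, had the most reads of all members, 5899 to 11607 per library. Its labelled share was 20.8, 25.3, 17.7, 22.0, 21.9 and 16.8%, at a rate of 0.0736 ± 0.0927 per h. Rnf10, which ubiquitylates ribosomal proteins of stalled ribosomes, had shares of 29.8, 27.8, 24.0, 27.8, 26.2 and 22.2%. Rnf187, a coactivator of the transcription factor AP-1, had shares of 15.7, 21.7, 15.5, 22.3, 20.6 and 19.4%. Values of Rnf213 lay between 16.8 and 25.3%, those of Rnf10 between 22.2 and 29.8% and those of Rnf187 between 15.5 and 22.3%. Rnf10 was highest at 0 min and lowest at 150 min, but its rate of 0.0854 ± 0.0875 per h was not called. Per kb of the deposited gene length, Rnf4 and Rnf187 were the highest of the 6 members with the most reads, at median levels of 59.7 and 58.6 CPM per kb, ahead of Rnf167 at 51.6, Rnf10 at 41.5, Rnf145 at 27.6 and Rnf213 at 20.7. Rnf214, Rnf141 and Rnf181 were not called either, at rates of 0.167 ± 0.0897, 0.161 ± 0.0942 and 0.0968 ± 0.0913 per h. On the raw T-to-C rate Rnf214 and Rnf141 fell (0.430 and 0.418 per h, limma adjusted p 0.0331 and 0.0305).

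Rows that fell and rows that did not fall followed the libraries in different ways. In 39 of the 42 that fell the 60 min share exceeded the 30 min share, against 2 of the 19 others and 47.1% of all genes tested. In 14 of the 19 others both the 30 and the 90 min share exceeded both the 0 and the 60 min share, a pattern seen in 0 of the 42 that fell and in 31.6% of all genes. The lowest share was at 150 min in 40 of the 42 and in 12 of the 19. The call is itself made from these shares, so the counts describe the values and carry no test. Across the 61 rows the share at 0 min and the rate fitted without the 0 min library ran together (Spearman's rho 0.915 over genes, 0.901 over all genes tested), both read from libraries that share depth and cells.

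Related ligases were then compared within libraries, through the ratio of their shares at each time, in 12 pairs chosen by sequence family or complex. The test was an exact two-sided permutation of the 6 times over 720 orderings, with Benjamini-Hochberg adjustment over the 12 pairs, and the smallest p that it gave for any pair was 0.00278. In 5 pairs the rates differed, and 4 of them are reported here.

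Rnf20 and Rnf40 form 1 complex that ubiquitylates histone H2B. The labelled share of Rnf20 was 66.2, 55.1, 56.7, 42.9, 25.9 and 15.5%, and that of Rnf40 was 63.2, 57.5, 64.2, 50.3, 34.1 and 21.3%. Rnf20 was above Rnf40 at 0 min only, and below it in the other 5 libraries. The rate of Rnf20 exceeded that of Rnf40 by 0.145 ± 0.00889 per h (SE, exact permutation p 0.00278, adjusted p 0.025), with half-lives of 74.4 and 100.4 min.

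Rnf19a (Dorfin), a RING-between-RING membrane ligase, had shares of 79.4, 65.2, 75.1, 40.2, 23.0 and 13.7%, and Rnf19b had 73.3, 65.6, 74.9, 48.6, 30.5 and 18.3%. Their posterior intervals overlapped at 30 and 60 min, and Rnf19a was lower from 90 min on. The rate of Rnf19a was higher by 0.163 ± 0.0243 per h (exact permutation p 0.00833, adjusted p 0.025). Rnf145, a ligase for the sterol synthesis enzyme HMG-CoA reductase, had shares of 66.3, 66.1, 68.0, 51.4, 29.3 and 20.0% and a half-life of 83.7 min. Rnf139, with the values given above, lost label faster by 0.256 ± 0.0409 per h (exact permutation p 0.00833, adjusted p 0.025). Rnf138 had shares of 51.8, 60.5, 55.9, 55.0, 29.8 and 23.7%, and its relative Rnf114 lost label faster by 0.287 ± 0.0579 per h (exact permutation p 0.0167, adjusted p 0.04). In each of these 3 pairs the faster gene was the higher of the pair at 0 min and the lower from 90 min on.

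**Figure D3:**
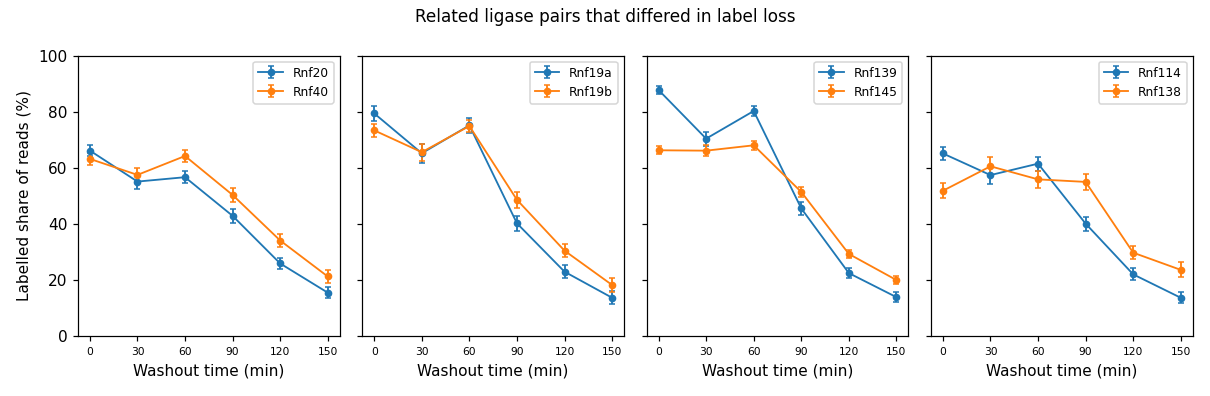
Labelled share of reads (%) against washout time (min) in 4 pairs of related ligases whose rates differed, with bars from the 5% to the 95% posterior quantile in 1 library per time. In each panel the lines cross: the faster gene starts above its relative at 0 min and lies below it from 90 min on, as Rnf139 at 13.9% and Rnf145 at 20.0% do at 150 min.

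The other 7 pairs did not pass. Rnf168 and Rnf169, with rates of 0.717 and 0.742 per h, differed by -0.0249 ± 0.0225 per h (exact permutation p 0.358). Rnf130 against Rnf149 gave -0.564 ± 0.145 per h (exact permutation p 0.0278, adjusted p 0.0556), and Rnf130 was the lower of the pair in every library. Rnf5 against Rnf185 gave -0.720 ± 0.281 per h (exact permutation p 0.0639, adjusted p 0.0958). Rnf111 against Rnf165, Rnf24 against Rnf122, Rnf13 against Rnf167 and Rnf115 against Rnf126 differed by 0.170, 0.166, -0.191 and -0.159 per h, with adjusted p from 0.0958 to 0.203. None of these shows that the pair acts alike. On the raw T-to-C rate none of the 4 reported differences passed: Rnf20 against Rnf40 was 0.109 per h, Rnf19a against Rnf19b 0.124, Rnf139 against Rnf145 0.214 and Rnf114 against Rnf138 0.323, with exact permutation p-values adjusted to between 0.1 and 0.15. Without the 60 min library, 8 pairs passed, the 3 added being Rnf5 against Rnf185 (-0.652 per h), Rnf13 against Rnf167 (-0.170 per h) and Rnf130 against Rnf149 (-0.529 per h). Without the 0, the 90, the 120 or the 150 min library 0 pairs passed, while the difference of Rnf20 against Rnf40 kept its sign, at 0.139 to 0.151 per h.

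Total reads, labelled and unlabelled together, showed no called change of an Rnf gene over the washout. By edgeR's quasi-likelihood test on the raw counts, 0 of the 74 Rnf rows that could be tested changed (0% of 15743 genes rose and 0% fell at an adjusted p under 0.05). At an unadjusted p under 0.05, 13 of the 74 rose and 3 fell, against 11.5% and 10.2% of all genes. DESeq2 called 1 member, Rnf149, higher (adjusted p 0.0454, against 2.27% of its genes that rose and 2.51% that fell). Without the 60 min library edgeR called 7 members that rose and 2 that fell, against 5.06% and 4.13% of all genes. With the times of the 30 and 60 min libraries exchanged it called 14 that rose and 3 that fell, against 10.1% and 8.22%.

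The 6 steepest positive slopes by estimate were those of Rnf39, Rnf138, Rnf145, Rnf19a, Rnf121 and Rnf24. Total reads of Rnf145 were 103, 117, 80.3, 115, 148 and 165 CPM from 0 to 150 min, and the fitted log2 slope was 0.27 ± 0.09 per h (SE, edgeR adjusted p 0.140). Rnf138 was at 30.6, 36.3, 22.8, 43.3, 43.2 and 50.7 CPM, with its lowest value at 60 min, and Rnf19a at 30.1, 36.0, 29.6, 47.2, 46.3 and 44.2 CPM. Both genes lay higher in each of the 3 late libraries than in any of the 3 early ones. For Rnf24, at 14.4, 15.3, 12.2, 20.0, 20.6 and 20.5 CPM, and Rnf121, at 29.7, 33.5, 23.1, 35.4, 44.4 and 43.7 CPM, the 3 late values also exceeded the 3 early ones. Rnf39 rested on 9 to 23 reads.

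The 6 steepest negative slopes were those of Rnf223, Rnf225, Rnf222, Rnf169, Rnf207 and Rnf130. Rnf223 was at 1.05, 0.632, 0.651, 0.362, 0.233 and 0.163 CPM, from 30 reads at 0 min to 3 reads at 150 min (-1.02 ± 0.23 log2 per h, edgeR adjusted p 0.0936). Rnf225 was at 4.60, 5.11, 9.42, 3.93, 2.56 and 1.85 CPM, with its peak at 60 min (-0.60 ± 0.24 log2 per h, edgeR adjusted p 0.183). Rnf169 was at 78.3, 104, 93.9, 113, 68.6 and 53.8 CPM, highest at 90 min and lowest at 150 min, and Rnf130 at 77.2, 56.9, 70.8, 58.3, 59.2 and 54.6 CPM, highest at 0 min. Rnf222 and Rnf207 were read from 9 to 29 reads per library, and the slope of Rnf207 turned positive without the 0 min library (0.27 log2 per h).

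**Figure D4:**
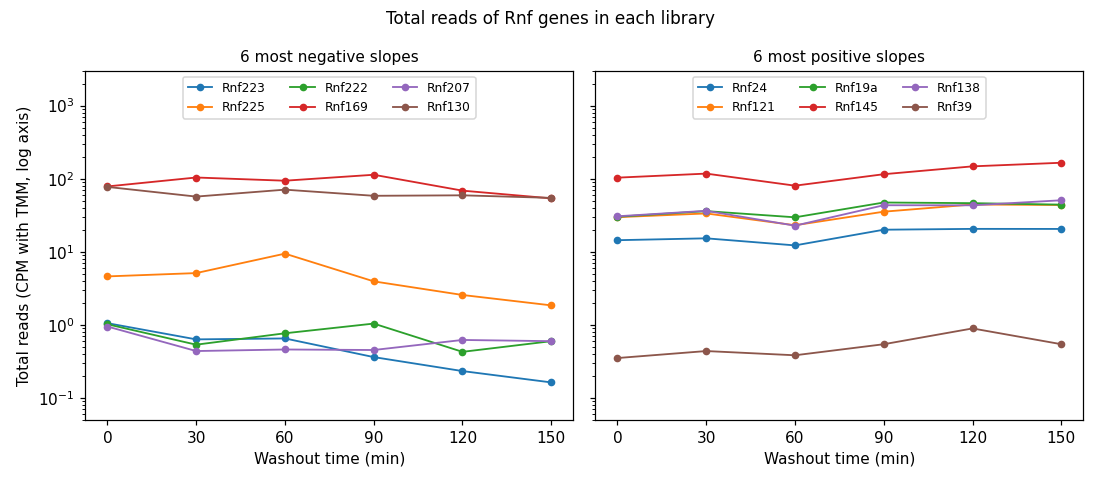
Total reads (CPM with TMM scaling, log axis) against washout time (min) for the 6 Rnf genes with the most negative and the 6 with the most positive fitted slopes, 1 library per time. Rnf225 goes from 9.42 CPM at 60 min to 1.85 CPM at 150 min, and Rnf145 from 80.3 CPM at 60 min to 165 CPM at 150 min; no slope passed edgeR's adjusted threshold.

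The enzymes that act with these ligases were read from the same fit. Of 31 genes for ubiquitin E1 and E2 enzymes, 15 fell, 0 rose and 16 were not called, with a median rate of 0.230 per h. Over all genes tested 52.3% fell, against 48.4% of these 31. The fastest were Ube2g2 (half-life 73.1 min) and Ube2g1 (81.7 min), E2 enzymes of protein removal from the endoplasmic reticulum, and the slowest called were Ube2v2 (169 min) and Ube2o (181 min). Among 25 rows for partners and substrates of Rnf ligases 17 fell (68%) and 8 were not called. Smad7, a substrate of Rnf111, was the fastest there (40.4 min), followed by Znrf3 (44.4 min), a Wnt receptor ligase related to Rnf43, while Arih2 (152 min) and Ski (156 min) were the slowest called. Rlim, another RING ligase, once named Rnf12, had a half-life of 86.2 min. Axin1, a substrate of Rnf146, fell with a half-life of 94.5 min, and Axin2, on the same list, with one of 46.5 min. Of 33 Trim genes, a second large RING family, 24 fell (72.7%, against 68.9% of the Rnf rows), with a median rate of 0.449 per h. Trim13 (34.4 min) and Trim52 (48.6 min) were the fastest and Trim71 (115 min) and Trim3 (137 min) the slowest called.

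Overlap with other genes could move some values. By GENCODE M21, 17 of the 61 rows overlap a gene on the opposite strand, among them Rnf146 with Echdc1, Rnf139 with Tatdn1, Rnf24 with Pank2, Rnf114 with Spata2 and Rnf167 with Slc25a11. The library kit keeps the strand, but no source used here says whether the counting did, so reads of such pairs may not be told apart.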

How the data were processed

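Nuclear RNA of 1 library per washout time was alkylated and sequenced as 2 × 81 nt stranded reads, per the labels' protocols. STAR 2.5.2b and mm10 are named in the submitters' processing notes, with no role. No source used here gives the program that made the gene table, its annotation, its conversion rate or its use of strand. The deposited table gives, per the file headers, raw read counts, counts of T-to-C conversions and covered T positions (to 4 significant digits), and the labelled share as a fraction (posterior mean, mode and quantiles). Column prefixes were matched to the titles by leaving out what all titles share, which is an inference. Some items among the rows, pairs and lists are not reported here. A further 30 columns of per-sample values were not used.

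The members, roles, pairs and lists were chosen with earlier results of these data known. Label loss was fitted with limma 3.58.1 to the natural log of the posterior mean against time (mean of at least 100 reads, share above 0 in every library, 11462 genes, 4 residual degrees of freedom, two-sided, Benjamini-Hochberg threshold 0.05). Total counts were tested with edgeR 4.0.16 (TMM, filterByExpr, quasi-likelihood) and DESeq2 1.42.0. The rate printed is the slope with its sign turned. On simulated data with 11462 genes, label loss was called for 85 of 100 genes set to a 60 min half-life and for 24 of 100 set to 120 min, with 6 false calls. For totals, 63 of 100 2-fold and 91 of 100 4-fold changes were called, with 11 false calls among 15551 genes. In both simulations only the set genes changed, and scatter was drawn for each gene apart. In the label data 52.3% of genes fell, and genes share the deviations of each library. The recovery and false calls therefore need not hold for the calls above. Gene IDs matched GENCODE M21 for 99.8% of rows. Values in every library are printed for the 6 fastest and 6 slowest rows that fell, the row that rose, the 6 with the most reads, the 2 with the most reads per role, called pairs and the steepest total slopes.

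Alternatives were each library left out, the posterior mode, the raw conversion rate, a logit scale, other read minimums, labelled abundance, exchanged 30 and 60 min times, both of these libraries left out, and other size factors, tests and filters for totals.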

Additional observations from a re-analysis of the deposited data

How the results depend on the processing

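No paired analysis was possible because each washout time has 1 library and all share the replicate number 1. The number of Rnf rows that fell was 30 to 45 when 1 library was left out and 36 to 51 under the other alternatives. Each lay within a factor of 1.5 of the count of 42. That limit is wide: 61 rows could not exceed it upward, and the 30 left without the 150 min library also met it. The 1 rise, that of Rnf130, became 0 on the raw T-to-C rate and 2 with the 30 and 60 min times exchanged. Labelled abundance ended the calls of Rnf138 (0.135 per h) and Rnf14 (0.252) and added Rnf17 (0.226), and fitting without a read minimum ended that of Rnf126 (limma adjusted p 0.0527). Rates near 0 changed sign: on labelled abundance Rnf149 (-0.0023 per h), Rnf150 (-0.0217) and Rnf7 (-0.00219), and on the raw rate Rnf187 (0.241), Rnf157 (0.253), Rnf5 (0.0634) and Rnf128 (0.175). Rnf7 also turned with the times exchanged (-0.0278) and without the 30 and 60 min libraries (-0.00246). With 1 library left out, Rnf115 ran from -0.0195 per h (without 150 min) to 0.203, Rnf7 from -0.0617 (without 150 min, and -0.0238 without 30 min) to 0.0677, and Rnf128 from -0.0868 to 0.0478 (without 0 min). For pairs, 5 passed as reported, 0 to 8 with 1 library left out, 1 on the raw rate, 8 with the times exchanged and 0 without the 30 and 60 min libraries. The smallest exact permutation p was 0.00833 or 0.0167 with 5 libraries and 0.0417 with 4. The 1 pair that passed on the raw rate is not among the 4 reported. Rnf168 against Rnf169 ran from -0.0491 to 0.0118 per h (without 0 min). For totals, edgeR called 0 rows that rose and 0 that fell as reported. Left-out libraries gave 0 to 7 that rose and 0 to 2 that fell, and the slope of Rnf207 ran from -0.30 to 0.27 log2 per h (without 0 min). The exchanged times gave 14 that rose and 3 that fell (10.1% and 8.22% of all genes), no filter gave 1 that fell (Rnf223), the fit without the 30 and 60 min libraries gave 1 that rose (Rnf138), and DESeq2 gave 1 that rose. The cause was not tested in these cases. The posterior mode and the logit scale changed no call of a member.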
